A study of Saccharomyces cerevisiae with 12 samples.

Results

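Cyc8p is a subunit of Tup1-Cyc8, a corepressor that holds many yeast genes silent. When it is lost, the flocculins, lectin-like proteins of the cell wall, are made and bind mannose on neighbouring cells, so that the cells clump into flocs. Free mannose occupies these lectins and keeps the cells apart. The comparison described here sets Cyc8p-depleted cultures that were kept from clumping (+Rap +Man) against Cyc8p-depleted cultures that flocculated (+Rap). Its question is which genes differ in RNA level between single and clumped cells that both lack nuclear Cyc8p.

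The comparison takes 6 of the 12 samples of the series, 3 of +Rap +Man and 3 of +Rap, which were named by their labels. All are of the Cyc8-AA anchor-away strain of *Saccharomyces cerevisiae* in the HHY221 background, which is of mating type Mata. The strain carries CYC8-FRB::HIS3 as the tagged corepressor gene and RPL13A2xFKBP12::loxP as the anchor, so that rapamycin ties Cyc8p to a ribosomal protein that leaves the nucleus, and the alleles tor1-1 and fpr1::loxP-LEU2-loxP keep rapamycin from acting on growth. The +Rap +Man cultures grew in YPD with 2% glucose at 30 °C and received rapamycin at 1 µg/ml and mannose at 0.25 M for 4 h, and the +Rap cultures received the same rapamycin and no mannose for 4 h. The other 6 samples, 3 of -Rap +Man and 3 of -Rap, are of the same strain with the solvent of rapamycin in its place, and their difference is set beside that of the depleted cultures throughout. The +Rap +Man and +Rap samples are separate cultures, since each experiment divided its own cultures into those with and those without rapamycin.

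RNA was depleted of rRNA and sequenced with strand-specific libraries, and the deposited values are reads counted on each of 6775 genes. The libraries with mannose were sequenced at another time and with single-end reads, those without it with paired-end reads. In the depleted comparison mannose, flocculation, sequencing run and read type therefore cannot be told apart, and in the undepleted one, whose cultures the study describes as free of flocs, mannose, run and read type cannot. Totals ran from 41896192 to 48675825 counts in +Rap +Man samples and from 26125728 to 30562700 counts in +Rap samples. The spread among replicates was wider than counting error alone, as the chi-square statistic averaged over genes was 103 to 149.9 for pairs of +Rap +Man samples and 34.1 to 58.2 for pairs of +Rap samples. The markers of the strain were checked first. The deleted *FPR1* (YNL135C) had 0 counts in all 3 +Rap +Man samples and 5, 0 and 0 counts in +Rap samples, and the 7 genes specific to MATa cells summed to between 102547 and 122533 normalized counts in +Rap +Man samples and between 17899 and 21231 in +Rap samples. The 4 genes specific to MATalpha cells summed to between 1281 and 1707 normalized counts in +Rap +Man samples and between 1099 and 1574 in +Rap samples. Most of this sum was *SAG1*, and 2 members moved in opposite directions. *MF(ALPHA)1* had 189, 159 and 148 counts in +Rap +Man samples, against 1, 7 and 4 in +Rap samples. *MF(ALPHA)2* had 4, 10 and 6 counts in +Rap +Man samples, against 85, 85 and 57 in +Rap samples. *CYC8* (YBR112C) itself was counted in every sample, as anchoring moves the protein and leaves the gene in place, at 1434, 1847 and 1591 normalized counts in +Rap +Man samples and 2472, 2942 and 2874 in +Rap samples. Its log2 difference of -0.77 (standard error 0.12, adjusted p = 0.00027 by limma) did not reach 1 in size and did so with total count scaling, at -1.11. With length centring, described further on, the difference of *CYC8* was -0.20 (adjusted p = 0.17 by limma).

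Normalized counts are counts divided by a factor from the trimmed mean of M-values (TMM), set so that a sample of average size among the 12 is left as it was. Before each test 2 counts were added, log2 was taken, and the groups were compared with limma on the 5878 genes with 10 or more counts in each of the 6 samples. A gene was called higher or lower at a Benjamini-Hochberg adjusted p of at most 0.01 and a log2 difference (+Rap +Man minus +Rap) of at least 1 in size. By this rule 742 genes (12.6% of those tested) were higher and 647 genes (11% of those tested) were lower in +Rap +Man than in +Rap cultures. The other 4489 were not called. Where the groups of a gene are said not to overlap, this describes its values and is no further test. The share of all genes tested whose groups do not overlap is not given. The undepleted difference (-Rap +Man minus -Rap), with the same change of mannose, run and read type, called 406 genes higher (6.97% of 5824 tested) and 460 genes lower (7.9% of 5824 tested). In bulk samples such as these, fewer cells of a type and less RNA per cell cannot be told apart.

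Many of the differences were present without depletion. Of the 742 genes higher in +Rap +Man than in +Rap, 709 were also tested in the undepleted cultures, and 346 of these were called higher there and 7 were called lower. Of the 647 lower genes, 625 were also tested, and 315 were called lower without depletion and 0 higher. Whether the depleted difference departs from the undepleted one was tested in a fit of all 12 samples, as the depleted difference minus the undepleted one. Taking this difference removes what mannose, run and read type add alike, on the log2 scale, to both comparisons. It was more positive in depleted cultures for 121 genes (2.1% of 5771 tested) and more negative for 60 genes (1.04% of 5771 tested) at the same thresholds. Each experiment divided its cultures into parts with and without rapamycin, and with samples of the same number within an experiment taken as parts of one culture, as a replicate block, the numbers were 187 (3.24%) and 85 (1.47%). When each of the 12 samples was left out in turn, between 70 (without +Rap replicate 1) and 139 (without -Rap replicate 3) genes were more positive and between 23 (without +Rap replicate 3) and 79 (without -Rap +Man replicate 3) more negative. The number of these 12 fits in which a named gene passed is given beside it where it was below 12. The plot of the depleted against the undepleted difference shows most genes near the diagonal, with *RPL43A* (YPR043W) far out in both, and with iron, thiamine and hexose transport genes above it and *SLI1* (YGR212W) and *RPN4* (YDL020C) below.

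**Figure D1:**
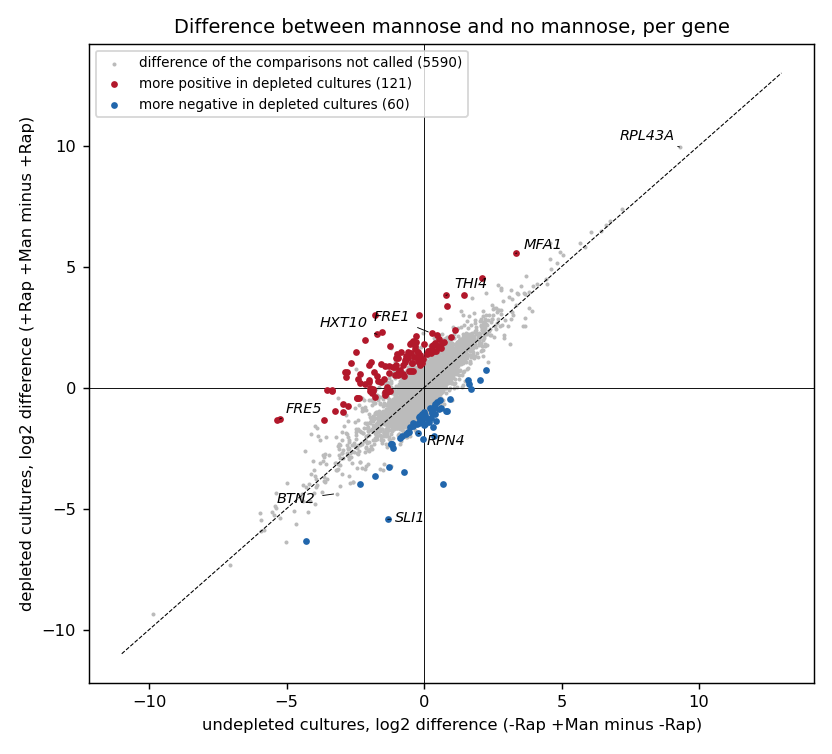
Log2 difference per gene between mannose and no mannose in depleted cultures (vertical axis, +Rap +Man minus +Rap) and in undepleted cultures (horizontal axis, -Rap +Man minus -Rap), each from 3 against 3 samples; the dashed line marks equal differences. Red points are the 121 genes with a more positive and blue points the 60 genes with a more negative difference in depleted cultures.

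The measured difference moved with the length of the gene, as the plot of medians by gene length shows. Annotated genes were put in 10 bins of equal number by length. In the bin of the shortest genes, of 71 to 444 bases, the median log2 difference was 0.71 in depleted and 0.44 in undepleted cultures, and 36.8% of its genes were called higher in +Rap +Man cultures. In the bin of the longest genes, of 2838 bases or more, the medians were -0.57 in depleted and -0.13 in undepleted cultures, and 19.9% were called lower with mannose and 4.58% higher. With each bin centred on its own median, 603 genes were higher and 501 lower in +Rap +Man, of which 524 and 400 were among those called without centring. The part of length in any one gene's difference was not tested, and the centred value is given where it ends a call of a named gene in the depleted comparison or in the difference of the comparisons. Scaling by total counts shifted the median of all genes by -0.34, to 490 higher and 1175 lower genes. Genes with a near-identical copy were more often called, with 116 higher and 16 lower of 233 tested, and of 202 tested genes absent from the annotation used here 34 were higher and 88 lower.

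**Figure D2:**
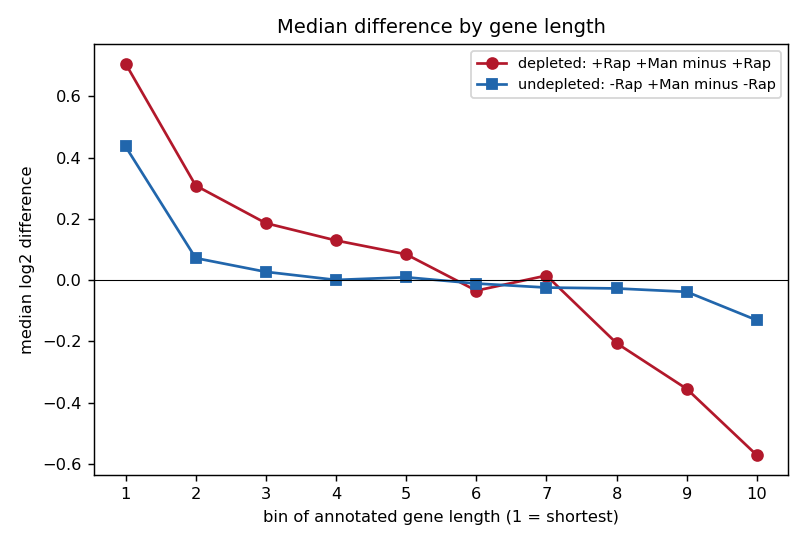
Median log2 difference in 10 bins of annotated gene length, from the shortest (1) to the longest (10) genes, for depleted cultures (red circles, +Rap +Man minus +Rap) and undepleted cultures (blue squares, -Rap +Man minus -Rap). The depleted median falls from 0.71 in the shortest to -0.57 in the longest bin, and the undepleted one from 0.44 to -0.13.

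The flocculin genes, which code for the lectins that mannose blocks, stayed expressed in both depleted groups and differed among themselves. *FLO9* (YAL063C) had 25633, 30759 and 23603 normalized counts in +Rap +Man samples, against 8090.0, 12026 and 9431 in +Rap samples, and *FLO10* (YKR102W) had 19454, 22666 and 16417 against 7601, 12233 and 6816. Both were higher without flocculation, with no overlap between the groups. *FLO1* (YAR050W), the best studied flocculin, had 7160.5, 10130.3 and 7035 normalized counts in +Rap +Man samples, against 17342, 29821 and 25456 in +Rap samples. It was lower in each +Rap +Man sample than in any +Rap sample. *FLO11* (YIR019C), which codes for an adhesin of filamentous growth, had 282236, 303562 and 278249 normalized counts in +Rap +Man samples and 223719, 328929 and 263523 in +Rap samples, and *FLO5* (YHR211W) had 60839, 69245 and 51674 in +Rap +Man samples and 64655, 98532 and 81851 in +Rap samples. The groups overlapped for both, and neither was called (0.099 and -0.42 on the log2 scale). The sign of *FLO11* turned with total count scaling and without +Rap replicate 1, and that of *FLO5* with length centring. The log2 differences were 1.45 for *FLO9* (standard error 0.16, adjusted p = 2.6e-05 by limma), 1.17 for *FLO10* (adjusted p = 0.00067) and -1.56 for *FLO1* (standard error 0.21, adjusted p = 9.7e-05). The depleted difference of *FLO9* exceeded its undepleted one of 0.24 by 1.20 (adjusted p = 0.0068 by limma), and did so in 2 of 12 fits that left out 1 sample. For *FLO5* the difference of the comparisons was opposite in sign, at -1.04, and passed with the replicate block (adjusted p = 0.0045 by limma) and not without it (adjusted p = 0.011). *FLO1* was also lower in -Rap +Man than in -Rap cultures, with a log2 difference of -1.86, and its depleted call ended with length centring, at -0.99, while that of *FLO10* ended with total count scaling, at 0.83. *FLO1* and *FLO9* have near-identical copies, so that reads may have been divided between them.

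Many iron uptake genes were higher in the non-flocculating cultures. Yeast takes up iron after reduction at the surface and as siderophores, and Aft1p turns the genes on when iron is short. Of 21 tested members of the list of iron uptake and siderophore genes, 10 were higher and 1 lower in +Rap +Man than in +Rap cultures, with a median log2 difference of 1.00, against -0.0072 over all genes tested. In undepleted cultures 0 were higher and 1 lower, with a median of -0.021. *FRE1* (YLR214W), the main ferric reductase, had 36674, 38735 and 34183 normalized counts in +Rap +Man samples, against 7844, 9764 and 5981 in +Rap samples. *FIT2* (YOR382W), a cell wall mannoprotein that retains siderophores, had 102168, 137278 and 83300.0 against 30313, 30876 and 28339, and *ARN2* (YHL047C), a siderophore transporter, had 13927, 19629 and 12936 against 4735, 4285 and 4413. Each +Rap +Man sample was above every +Rap sample for these 3 genes. The log2 differences were 2.24 (standard error 0.16, adjusted p = 2.1e-06 by limma) for *FRE1*, 1.82 (standard error 0.17, adjusted p = 1e-05) for *FIT2* and 1.77 (standard error 0.15, adjusted p = 5e-06) for *ARN2*. Undepleted values of *FIT2* were 296, 345 and 277 in -Rap +Man samples and 224, 298 and 444 in -Rap samples, far below both depleted groups. The depleted exceeded the undepleted difference by 1.97 for *FRE1* (adjusted p = 0.0093 by limma), 1.84 for *FIT2* (adjusted p = 0.0037) and 1.45 for *ARN2* (adjusted p = 0.00082), and passed in 2, 9 and 12 of 12 fits that left out 1 sample, with that of *FIT2* lost without any 1 of the +Rap samples. Over the whole list 5 members had a more positive difference, 9 with the replicate block, and between 2 (without any 1 of the +Rap samples) and 8 (without -Rap +Man replicate 1) when a sample was left out. The siderophore transporters *ARN1* (YHL040C) and *SIT1* (YEL065W) had log2 differences of 1.89 and 1.41 in depleted cultures and 0.93 and 0.39 in undepleted ones. The exception was *FRE5* (YOR384W), a reductase gene by sequence, which had 965, 1128 and 804 normalized counts in +Rap +Man samples, against 2179, 2387 and 2524 in +Rap samples. Its log2 difference was -1.30 in depleted and -5.26 in undepleted cultures, where it had 18.9, 29.7 and 19.4 in -Rap +Man samples and 1049.7, 861 and 874 in -Rap samples. 

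The upstream regions of these genes carry the letters TGCACCC, the core to which Aft1p binds. Matches were sought on both strands in the 500 bases before each start codon in the S288c genome from RefSeq (assembly R64), and were found for 19 of 21 listed iron genes (90.5%) and for 138 of all 5860 genes with such a window (2.35%). Among genes called higher in +Rap +Man cultures 4.08% had a match, and among those called lower 2.91%. The site nearest the start codon is shown for the list's members named above that hold one, 5′ to 3′ on the strand of the gene, with the motif in capitals and 8 bases on each side.
*FIT2*, chrXV:1059392-1059414, plus strand: atctaactGGGTGCAgtataatt
*ARN1*, chrVIII:21217-21239, minus strand: tatcaaaaTGCACCCataaaagc
*ARN2*, chrVIII:10646-10668, minus strand: cagaaaatGGGTGCAgttcttag
*SIT1*, chrV:27461-27483, plus strand: acatttgaGGGTGCAatctggtt
*FRE5*, chrXV:1061326-1061348, plus strand: aacaaacaGGGTGCAaaaaaaaa
*FRE5*, which was lower with mannose, thus shares this motif with *FIT2*, *ARN1*, *ARN2* and *SIT1*, which were higher. The letters are a match in the sequence and say nothing of binding in these cultures.

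Some zinc and copper uptake genes were higher in the non-flocculating cultures as well. Of 6 tested members 3 were higher in +Rap +Man than in +Rap cultures and 0 lower, and 0 were called either way in undepleted cultures. *ZRT1* (YGL255W), the high-affinity zinc transporter, had 41958, 37919 and 50284 normalized counts in +Rap +Man samples, against 15977, 13286 and 12270.1 in +Rap samples (log2 difference 1.65, adjusted p = 5.2e-06 by limma). *CTR1* (YPR124W), the high-affinity copper transporter, had 26794, 31194 and 23677 against 7589, 13694 and 8422 (log2 difference 1.50, adjusted p = 0.00012). The groups did not overlap for either gene. The excess over the undepleted difference was 1.87 for *ZRT1* (adjusted p = 0.015, or 0.0024 with the replicate block, by limma) and 1.15 for *CTR1* (adjusted p = 0.078), so that it passed for *ZRT1* with the block only.

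Genes of vitamin supply formed the list with the largest count of higher genes. Yeast makes thiamine from separate thiazole and pyrimidine parts and takes up biotin and nicotinic acid through dedicated permeases. Of 32 tested members 18 were higher and 0 lower in +Rap +Man than in +Rap cultures, with a median log2 difference of 1.20. In undepleted cultures 5 were higher and 2 lower, with a median of 0.22. Of the 32 members 8 have a near-identical copy, and of all 233 tested genes with such a copy 116 were higher in depleted cultures. *THI4* (YGR144W), the thiazole synthase, had 61258, 147825 and 32467 normalized counts in +Rap +Man samples, against 4914, 4736 and 4579.9 in +Rap samples. The lowest +Rap +Man sample was well above the highest +Rap sample, but the +Rap +Man samples were spread widely, with replicate 2 the highest. The log2 difference of *THI4* was 3.81 (standard error 0.42, adjusted p = 3.2e-05 by limma) and ranged from 3.23 to 4.33 over the fits without 1 sample. *TNA1* (YGR260W), the nicotinic acid permease, had 17669.8, 14738 and 18606 normalized counts in +Rap +Man samples, against 5609, 6401 and 5701 in +Rap samples, and *VHT1* (YGR065C), the biotin permease, had 6916, 6517 and 6376 against 2014, 2097 and 1731. Their log2 differences were 1.52 and 1.76 (adjusted p = 2.4e-06 and 4.4e-07 by limma). The depleted difference exceeded the undepleted one by 3.01 for *THI4* (adjusted p = 0.0041 by limma) and 1.15 for *TNA1* (adjusted p = 0.0085), passing in 7 and 2 of 12 fits that left out 1 sample (*THI4* not without any 1 of the +Rap samples, -Rap +Man replicate 2 or -Rap replicate 2), while for *VHT1* the excess of 0.78 did not pass (adjusted p = 0.016). *BIO5* (YNR056C), a permease for a biotin precursor, had 3911, 3235 and 3459 normalized counts in +Rap +Man samples and 1743, 1682 and 1828 in +Rap samples, and 63.3, 74.7 and 73.7 in -Rap +Man samples and 598, 456 and 349 in -Rap samples. Mannose cultures were therefore the higher ones with depletion and the lower ones without it. Its depleted log2 difference of 1.01 sat at the threshold, and its call ended without +Rap +Man replicate 1 or +Rap replicate 2, with total count scaling (0.67), with length centring (0.99) and with samples thinned to the smallest total. The excess over the undepleted difference was 3.67 (adjusted p = 1.6e-06 by limma).

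Some phosphate genes were higher in the depleted comparison, and some were lower with mannose without depletion. Pho4p turns on phosphatases and transporters when phosphate is short. Of 18 tested members 4 were higher in +Rap +Man than in +Rap cultures and 0 lower, and of 19 tested in undepleted cultures 1 was higher and 4 were lower with mannose. The difference of the comparisons was more positive in depleted cultures for 5 of 18 and for 4 to 6 when a sample was left out. Over all genes tested 12.6% were higher in depleted cultures, 7.9% were lower in undepleted ones, and 2.1% had a more positive difference of the comparisons. *PHO11* (YAR071W), a secreted acid phosphatase, had 2201, 2863 and 3829 normalized counts in +Rap +Man samples, against 271, 280.3 and 290.1 in +Rap samples, a log2 difference of 3.36 (standard error 0.18, adjusted p = 2.6e-07 by limma). The groups lay far apart, but *PHO11* has a near-identical copy, and its reads may have been shared. *PHO5* (YBR093C), the main acid phosphatase, had 5729.6, 5918 and 6415 normalized counts in +Rap +Man samples and 3553, 5447 and 4050.4 in +Rap samples, which did not overlap, and its log2 difference of 0.49 did not reach 1. In undepleted cultures it had 3137, 2089 and 1911 in -Rap +Man samples and 7104, 8890.4 and 7132 in -Rap samples, and was lower with mannose, with a log2 difference of -1.72. *PHO89* (YBR296C), a phosphate transporter, was also called lower without depletion and not called with it, with 0.33 in depleted and -2.00 in undepleted cultures, as was *GIT1* (YCR098C), a glycerophosphoinositol transporter, with 0.88 in depleted and -1.44 in undepleted cultures. With total count scaling the sign of *PHO89* in depleted cultures turned. Without +Rap +Man replicate 1, *GIT1* was called higher in the depleted cultures. The difference of the comparisons was 2.53 for *PHO11*, 2.21 for *PHO5*, 2.34 for *PHO89* and 2.31 for *GIT1* (adjusted p = 0.0014, 0.00042, 0.0041 and 0.0018 by limma), and that of *PHO89* passed in 6 of 12 fits that left out 1 sample. The E-box CACGTG, which Pho4p and Cbf1p bind, was in the 500 bases before the start codon of 14 of 20 listed genes (70%) and of 6.19% of all genes with a window. Its match nearest the start codon is shown for 3 of them whose difference of the comparisons passed, in RefSeq R64, on the strand of the gene, with the E-box in capitals.
*PHO11*, chrI:225169-225190, plus strand: ggcgttcaCACGTGggtttaaa
*PHO5*, chrII:431191-431212, minus strand: ggcactcaCACGTGggactagc
*PHO89*, chrII:798832-798853, minus strand: caatgcagCACGTGggagacaa

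Hexose transporters went both ways. Of 21 tested members of the list 3 were higher and 4 lower in +Rap +Man than in +Rap cultures, and of 19 tested in undepleted cultures 0 were higher and 7 lower. Over all genes tested 12.6% were higher and 11% lower in depleted cultures, and 6.97% and 7.9% in undepleted ones. The share of members higher in depleted cultures was thus near that of all genes. *HXT1* (YHR094C), the low-affinity transporter of high glucose, had 85764, 96971 and 74103 normalized counts in +Rap +Man samples, against 20088, 20593 and 18566 in +Rap samples, and *HXT10* (YFL011W) had 6554, 10177 and 12955 against 1675, 2142 and 2466. The high-affinity transporter *HXT7* (YDR342C) had 17389, 18379 and 14590.2 normalized counts in +Rap +Man samples, against 63678, 76015 and 69992 in +Rap samples. No groups overlapped, with log2 differences of 2.11 for *HXT1*, 2.20 for *HXT10* and -2.06 for *HXT7* (adjusted p = 5.4e-07, 2.1e-05 and 6.1e-07 by limma). In undepleted cultures *HXT1* had 2.56 (adjusted p = 0.011 by limma, not called) and *HXT7* had -3.59 and was called lower. Their differences of the comparisons, -0.45 and 1.53, did not pass (adjusted p = 0.70 and 0.012 by limma). That of *HXT7* passed with the replicate block (adjusted p = 0.0016 by limma). *HXT2* (YMR011W), another high-affinity transporter, had 424915, 401437 and 326908 normalized counts in +Rap +Man samples and 414386, 471468 and 441946 in +Rap samples, which overlapped. In undepleted cultures both *HXT2* and *HXT10* were lower with mannose, with log2 differences of -1.91 and -1.71. *HXT6* (YDR343C) had log2 differences of -1.34 in depleted and -5.37 in undepleted cultures, and its depleted call ended in the fit of all 12 samples. Its near-identical copy is *HXT7*, and the sharing of reads between them is not known. The difference of the comparisons was 3.91 for *HXT10*, 1.69 for *HXT2* and 4.03 for *HXT6* (adjusted p = 0.00026, 0.00052 and 0.001 by limma). *HXT15* (YDL245C), which carries polyols and has a near-identical copy, had 19343, 18231 and 16814 normalized counts in +Rap +Man samples, against 1218, 1449.8 and 1241 in +Rap samples, the largest difference of the list at 3.80 (adjusted p = 3.8e-09), and was too low for a test in undepleted cultures.

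Of the other permeases more were higher than lower, and the plot of called shares sets each list beside its undepleted counterpart. Of 25 tested amino acid and ammonium permeases 9 were higher and 2 lower in +Rap +Man than in +Rap cultures, and in undepleted cultures 3 were higher and 4 lower. Of 25 tested genes of purine synthesis and nucleobase uptake 6 were higher and 0 lower, and in undepleted cultures 0 were called. The uracil permease *FUR4* (YBR021W) had 5627, 6307 and 5902 normalized counts in +Rap +Man samples, against 1456, 1454 and 1306 in +Rap samples (log2 difference 2.08, adjusted p = 9.2e-08 by limma). The uridine permease *FUI1* (YBL042C) had 18089.6, 15504 and 16049.9 against 6344, 6497 and 5215 (log2 difference 1.46, adjusted p = 3.3e-06). Groups did not overlap, and the depleted difference exceeded the undepleted one by 1.11 for *FUR4* and 1.69 for *FUI1* (adjusted p = 0.00077 and 0.00069 by limma). *MUP1* (YGR055W), the high-affinity methionine permease, had 9499, 10734 and 12574 normalized counts in +Rap +Man samples, against 1824, 1345 and 1751 in +Rap samples (log2 difference 2.74), and was higher with mannose in undepleted cultures too, with a log2 difference of 2.23. The sulfate permeases *SUL1* (YBR294W) and *SUL2* (YLR092W) were lower in +Rap +Man cultures. *SUL1* had 201, 221 and 208 normalized counts in +Rap +Man samples, against 986, 1219 and 1023 in +Rap samples (log2 difference -2.34), and was lower in undepleted cultures too, with -3.11. *SUL2* had 203, 195 and 257 against 656, 660.0 and 699 (log2 difference -1.62, adjusted p = 4.7e-06 by limma), beside -0.53 in undepleted cultures. The difference of the comparisons for *SUL2* was -1.09 (adjusted p = 0.0075 by limma), and passed in 3 of 12 fits that left out 1 sample. With length centring it was -0.78 and did not pass. *AGP3* (YFL055W), an amino acid permease, went the other way from most of its list, with 169.5, 154 and 186 normalized counts in +Rap +Man samples, against 693, 699 and 689 in +Rap samples (log2 difference -2.02, adjusted p = 6.7e-07), and a difference of the comparisons of -2.40 (adjusted p = 4.8e-05 by limma).

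**Figure D3:**
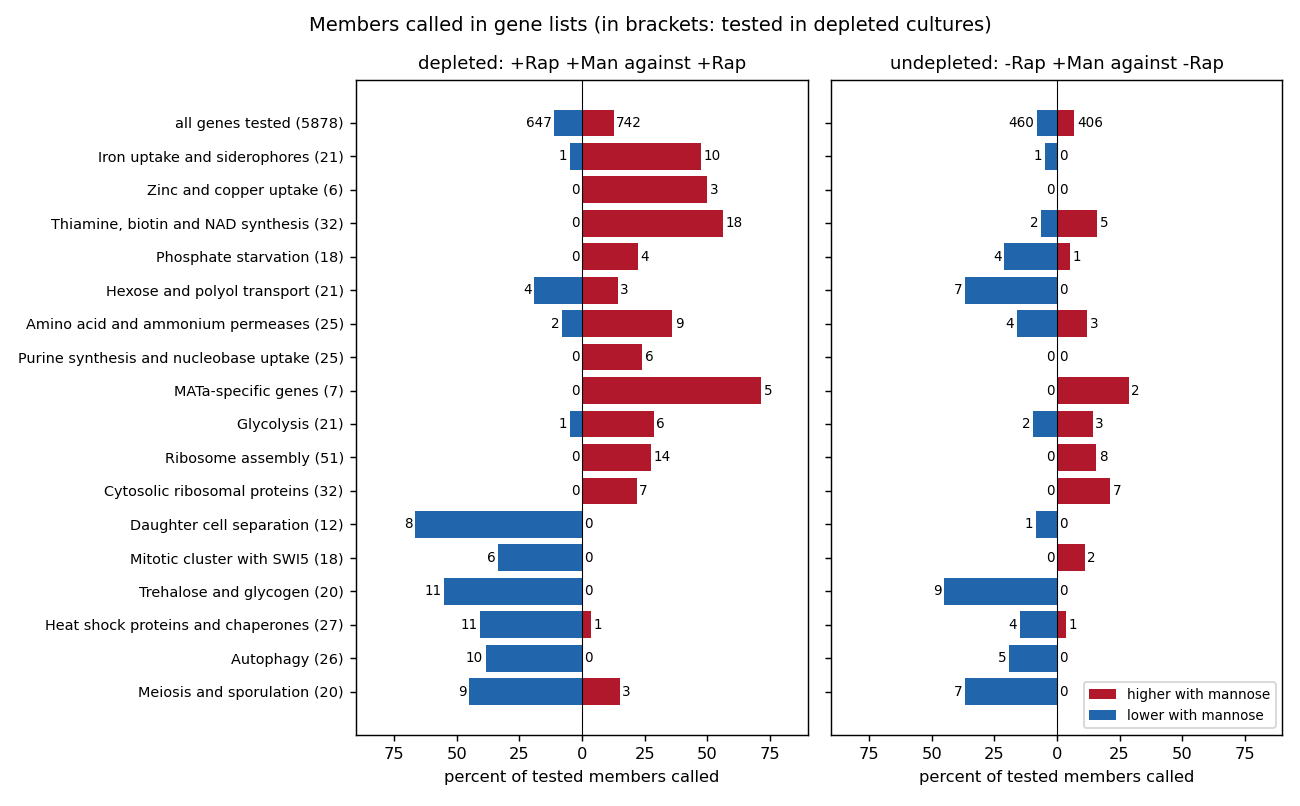
Percent of the tested members of each list called higher (red, to the right) or lower (blue, to the left) with mannose in depleted cultures (left panel, +Rap +Man against +Rap) and undepleted cultures (right panel, -Rap +Man against -Rap), with the number of members called beside each bar. Of 21 iron genes, 10 are higher in depleted and 0 in undepleted cultures, while 11 of 20 trehalose and glycogen genes are lower in depleted and 9 in undepleted cultures.

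Most genes specific to MATa cells were higher in the non-flocculating cultures. They serve the a mating type, which secretes a-factor and senses alpha-factor. Of 7 tested members 5 were higher and 0 lower, with a median log2 difference of 2.00, and in undepleted cultures 2 were higher. *STE2* (YFL026W), the receptor of alpha-factor, had 43304, 37016 and 44402 normalized counts in +Rap +Man samples, against 10344, 11238 and 8626 in +Rap samples, and *BAR1* (YIL015W), the protease that degrades alpha-factor, had 6424, 4416 and 6334 against 1781, 1879 and 1532. *AGA2* (YGL032C), the adhesion subunit of a-agglutinin, had 7631, 4935 and 7138 against 1461, 1853 and 1553. No groups overlapped, and the log2 differences were 2.05, 1.71 and 2.00 (adjusted p = 7.3e-07, 7.3e-06 and 4.6e-06 by limma). For *BAR1* the +Rap samples were also below the undepleted ones, which had 7232, 5540.5 and 5664 normalized counts in -Rap +Man samples and 5712, 4404 and 5046 in -Rap samples, so that +Rap was the low group of the 4. The excess over the undepleted difference was 1.43 for *BAR1* and 1.47 for *AGA2* (adjusted p = 0.0029 and 0.0077 by limma), passing in 10 and 3 of 12 fits that left out 1 sample (*BAR1* not without replicate 3 of +Rap +Man or of +Rap), and 1.27 for *STE2* (adjusted p = 0.015, or 0.0029 with the replicate block). With length centring the difference of the comparisons for *AGA2* was 1.22 and did not pass (adjusted p = 0.024 by limma). The a-factor genes *MFA1* (YDR461W) and *MFA2* (YNL145W), of 111 and 117 bases, had the largest differences of the list, 5.54 and 4.59 in depleted and 3.33 and 3.71 in undepleted cultures. Both are among the shortest genes, and centred on their length bin they were higher by 4.84 and 3.89 in +Rap +Man cultures. 

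Most genes of daughter cell separation and some of late mitosis were lower in the non-flocculating cultures. At the end of mitosis enzymes of the cell wall part the daughter from its mother, and Swi5p is a transcription factor that enters the nucleus at that time. Of 12 tested members of the separation list 0 were higher and 8 lower in +Rap +Man than in +Rap cultures, with a median log2 difference of -1.15. In undepleted cultures 1 was lower, with a median of -0.18. *DSE1* (YER124C), a daughter-specific gene, had 3256, 2308 and 2644 normalized counts in +Rap +Man samples, against 7193, 8289 and 8037 in +Rap samples, and *PRY3* (YJL078C), a cell wall protein of the CAP family, had 1814, 1696 and 1575 against 4750.4, 5036 and 4476. Their log2 differences were -1.53 and -1.49 (adjusted p = 5.4e-06 and 9.2e-07 by limma), with no overlap of groups. *EGT2* (YNL327W), which acts in separation, had a log2 difference of -1.39, and with length centring its call ended, at -0.82. *CHS1* (YNL192W), the chitin synthase that repairs the septum, had the largest difference of the list at -1.95 and a like one of -1.75 in undepleted cultures. The difference of the comparisons was -1.23 for *PRY3* (adjusted p = 0.0068 by limma, passing in 4 of 12 fits that left out 1 sample, and ended by length centring at -0.92) and -0.79 for *DSE1*, which was not called.

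Of 18 tested members of the mitotic cluster that holds *SWI5* (YDR146C), 0 were higher and 6 lower in +Rap +Man than in +Rap cultures (3 lower with length centring), and in undepleted cultures 2 were higher with mannose and 0 lower. The medians were -0.38 in depleted and 0.49 in undepleted cultures. *SWI5* had 631, 589.8 and 448 normalized counts in +Rap +Man samples, against 1347, 1680.4 and 1474 in +Rap samples, and *CDC15* (YAR019C), a kinase of the mitotic exit network, had 589, 408 and 418 against 1744, 2162 and 1992. Every +Rap +Man sample was below every +Rap sample for both genes. The log2 differences were -1.44 for *SWI5* (standard error 0.15, adjusted p = 1.7e-05 by limma) and -2.07 for *CDC15* (standard error 0.15, adjusted p = 2.4e-06). The differences of the comparisons were -1.60 and -1.19 (adjusted p = 0.0032 and 0.005 by limma), passing in 9 and 5 of 12 fits that left out 1 sample, with that of *SWI5* lost without +Rap +Man replicate 3, +Rap replicate 2 or +Rap replicate 3. With length centring neither passed, at -1.30 for *SWI5* and -0.76 for *CDC15* (adjusted p = 0.012 and 0.049 by limma). The cytokinesis genes *MYO1* (YHR023W), *IQG1* (YPL242C) and *BUD4* (YJR092W) were lower, with log2 differences of -1.65, -1.07 and -1.07. These are long genes, of 5787, 4488 and 4344 bases, and with length centring *MYO1* stayed called at -1.08 while the calls of *IQG1* and *BUD4* ended at -0.50 and -0.50. The call of *BUD4* also ended without +Rap replicate 3. The differences of the comparisons for *IQG1* and *BUD4*, -1.01 and -1.35, passed (adjusted p = 0.0032 and 0.0063 by limma), and did not with length centring, at -0.58 and -0.91. *CLB2* (YPR119W), the main mitotic cyclin, was not called in depleted cultures (0.27, and below 0 with total count scaling) and was higher with mannose in undepleted ones (1.48). Over the list 5 members had a more negative difference in depleted cultures, 7 with the replicate block, 1 with length centring, and between 0 (without +Rap +Man replicate 3 or +Rap replicate 3) and 9 (without -Rap +Man replicate 3) when a sample was left out. The plot of list members shows this for each gene. The list was put together with the result for *SWI5* known, and its count is no independent evidence.

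**Figure D4:**
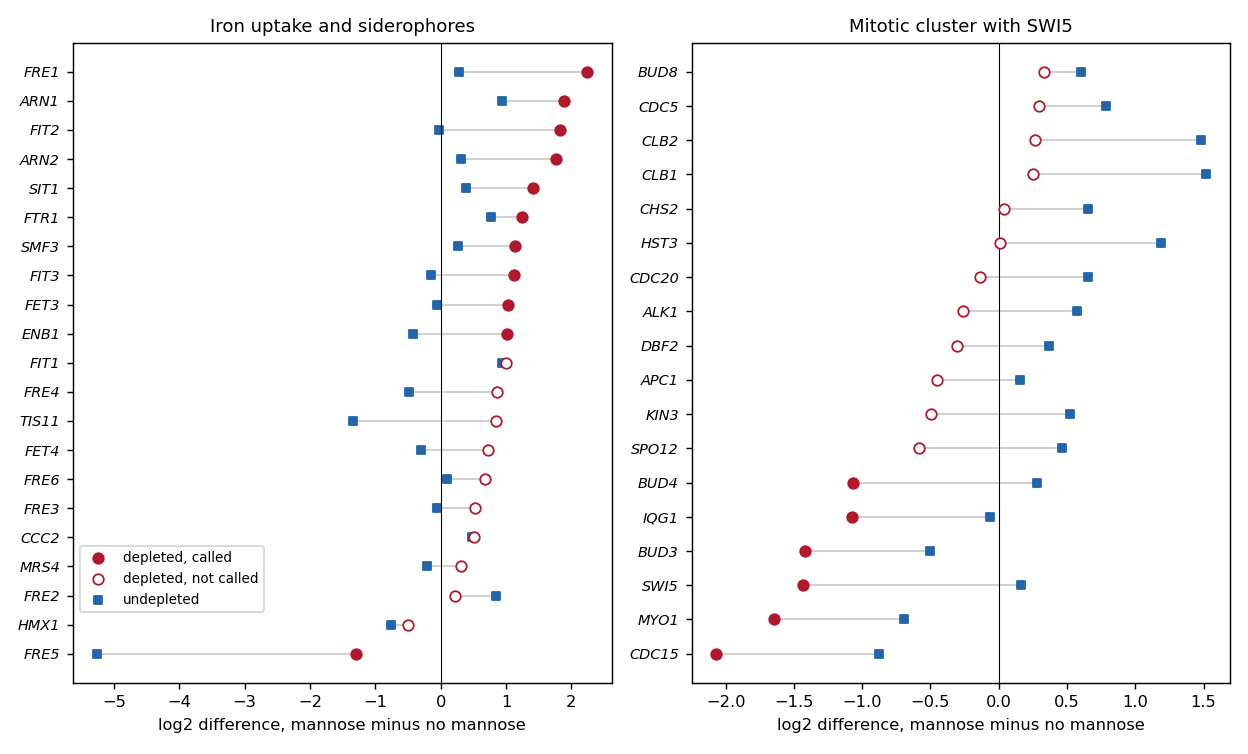
Log2 difference between mannose and no mannose for the members of the iron uptake list (left) and the mitotic list (right), with 1 row per gene, red circles for depleted cultures (filled where called, open where not) and blue squares for undepleted cultures. Of the iron genes all called ones but *FRE5* lie above 0 in depleted cultures, and each mitotic gene lies further left in depleted than in undepleted cultures.

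Many reserve carbohydrate genes were lower with mannose whether or not Cyc8p was depleted, and many heat shock genes were called lower with depletion and a few without it. Of 27 tested chaperone genes 1 was higher and 11 lower in +Rap +Man than in +Rap cultures, and in undepleted cultures 1 was higher and 4 lower. The medians were -0.64 and -0.44. The difference of the comparisons, with a median of -0.054, was called for 0 of 27. It was more negative for 2 with the replicate block and for 1 without -Rap replicate 3. *BTN2* (YGR142W), which sorts misfolded proteins, had 1389, 704 and 855 normalized counts in +Rap +Man samples, against 14257, 15219 and 34818 in +Rap samples. *HSP42* (YDR171W), a small heat shock protein, had 6589, 3875 and 3956 against 24573, 29105 and 38722, and *HSP104* (YLL026W), the disaggregase, had 16105, 11952 and 11487 against 51391, 58737 and 91079. The groups did not overlap, and +Rap replicate 3 was the highest depleted sample for all 3 genes. The log2 differences were -4.38 for *BTN2* (standard error 0.34, adjusted p = 3.2e-06 by limma), -2.70 for *HSP42* and -2.32 for *HSP104* (adjusted p = 4.4e-06 and 8.6e-06). In undepleted cultures the same genes were lower with mannose, with log2 differences of -3.16, -3.00 and -2.27, and the difference of the comparisons passed its test for none of the 3 without the replicate block and for *BTN2* with it (adjusted p = 0.25, or 0.0071 with the block). *HSP30* (YCR021C), a membrane heat shock protein, had log2 differences of -3.39 in depleted and -4.00 in undepleted cultures. The heat shock element sought was TTC, GAA and TTC with 2 bases of any kind between each. It was in the 500 bases before the start codon of 14 of 27 listed genes (51.9%), of 2.91% of genes called lower, of 1.6% of genes called higher and of 1.48% of all genes with a window. The match nearest the start codon is shown for the chaperone genes above and for *RPN4*, described further on, with the element in capitals on the strand of the gene in RefSeq R64.
*BTN2*, chrVII:772107-772135, plus strand: tttttctaGAAAGTTCCGGAAaattgcga
*HSP42*, chrIV:806375-806403, plus strand: aagttctgGAAGGTTCGCGAAttgagaac
*HSP104*, chrXII:88318-88346, plus strand: tttttccaGAATTTTCTAGAAgggttatt
*RPN4*, chrIV:416709-416737, minus strand: caaaagttTTCTAGAATTTTCaagcaatc

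Of 20 tested genes of trehalose and glycogen, the storage carbohydrates of resting yeast, 0 were higher and 11 lower in +Rap +Man than in +Rap cultures, with a median log2 difference of -1.06, and in undepleted cultures 9 were lower with a median of -1.24. *TPS2* (YDR074W), which makes trehalose, had 10503, 8538 and 6486 normalized counts in +Rap +Man samples, against 35358, 42871 and 44834 in +Rap samples, a log2 difference of -2.29 (adjusted p = 2.5e-06 by limma) beside -2.29 without depletion. *GSY1* (YFR015C), a glycogen synthase, had 9382, 7520.4 and 6216 against 24539, 30328 and 30549.5, with log2 differences of -1.90 in depleted and -4.13 in undepleted cultures. *GAC1* (YOR178C), which directs a phosphatase to glycogen synthase, had -2.00 in depleted and -3.87 in undepleted cultures. The differences of the comparisons for *GSY1* and *GAC1*, 2.23 and 1.87, passed with the replicate block (adjusted p = 0.0034 and 0.001 by limma) and not without it (adjusted p = 0.038 and 0.013). Of 26 tested autophagy genes 10 were lower and 0 higher, and in undepleted cultures 5 were lower. *ATG1* (YGL180W), the kinase that starts autophagy, had 409.5, 305 and 340.4 normalized counts in +Rap +Man samples, against 1093, 1194 and 1261 in +Rap samples (log2 difference -1.75, and -1.21 in undepleted cultures), and *ATG29* (YPL166W), whose locus runs opposite to another gene, had -1.70 in depleted and -1.39 in undepleted cultures. The stress element AGGGG, bound by Msn2p and Msn4p, was in the 500 bases before the start codon of 49.9% of genes called lower, of 32% of genes called higher and of 34.4% of all genes tested.

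In the sporulation list a pair of spore wall genes was higher, and other genes, among them regulators, were lower. *DIT1* (YDR403W), an enzyme of the dityrosine layer of the spore wall, had 199396, 166774 and 186284 normalized counts in +Rap +Man samples, against 42304, 61562 and 53046 in +Rap samples, and *DIT2* (YDR402C), its partner, had 17962, 14058 and 15809 against 3274, 3924 and 3778. Both were higher without flocculation, by 1.83 and 2.12 on the log2 scale (adjusted p = 5.7e-06 and 3.8e-07 by limma), and exceeded the undepleted differences by 2.32 and 2.40 (adjusted p = 0.0027 and 0.00042). *IME1* (YJR094C), the first regulator of meiosis, had 3025, 1969 and 1892 normalized counts in +Rap +Man samples, against 7219, 7654 and 8136 in +Rap samples (log2 difference -1.77). *NDT80* (YHR124W), the regulator of the middle meiotic genes, had 281, 136 and 217 against 1009, 925 and 1031 (log2 difference -2.28), and -2.54 in undepleted cultures. Of 20 tested members of the list 3 were higher and 9 lower in depleted cultures, and of 19 tested in undepleted cultures 0 were higher and 7 lower. The third higher gene, *SPS100* (YHR139C), overlaps a gene on the opposite strand and has a near-identical copy, so that its log2 difference of 6.89 is uncertain.

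Some glycolytic and ribosome assembly genes were higher with mannose in both settings. Of 21 tested glycolytic genes 6 were higher and 1 lower in +Rap +Man than in +Rap cultures, and in undepleted cultures 3 were higher and 2 lower. The medians of the glycolytic list were 0.53 in depleted and -0.049 in undepleted cultures. Pyruvate kinase *CDC19* (YAL038W) had 635617, 689368 and 607082 normalized counts in +Rap +Man samples, against 120358, 154758 and 146347 in +Rap samples, and phosphoglycerate kinase *PGK1* (YCR012W) had 602180.0, 620862 and 538509 against 149330.0, 176024 and 163485. The log2 differences were 2.20 and 1.85 in depleted cultures (adjusted p = 1.8e-06 and 3.7e-06 by limma) and 1.68 and 0.99 in undepleted ones, where *PGK1* was not called. The glyceraldehyde-3-phosphate dehydrogenase *TDH2* (YJR009C), which has near-identical copies, had 407380.0, 455937 and 352880.0 normalized counts in +Rap +Man samples, against 102046, 119392 and 106337 in +Rap samples (log2 difference 1.89, adjusted p = 3.6e-06). Its undepleted difference was 0.54, and the excess of 1.35 did not pass the test (adjusted p = 0.017). *PDC5* (YLR134W), a pyruvate decarboxylase, had 209147, 448707 and 143005 against 13179, 16088 and 12516, with +Rap +Man replicate 2 the highest, as for *THI4*, and had log2 differences of 4.10 in depleted and 2.79 in undepleted cultures. Phosphoglycerate mutase *GPM1* (YKL152C) had 3.59 in depleted and 2.88 in undepleted cultures.

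Of 51 tested ribosome assembly genes 14 were higher and 0 lower in depleted cultures, and 8 were higher and 0 lower in undepleted ones, with medians of 0.53 and 0.48. *NSR1* (YGR159C), a nucleolar protein, had 30558, 36048 and 35611 normalized counts in +Rap +Man samples, against 12015, 10515 and 8049 in +Rap samples (log2 difference 1.76, and 1.65 in undepleted cultures). In the difference of the comparisons limma called 0 of 51, also with the replicate block, and 1 without -Rap +Man replicate 3. A few ribosomal and other short genes had far larger differences. *RPL43A*, a protein of the large ribosomal subunit, had 31052, 32929 and 24662 normalized counts in +Rap +Man samples, against 36.6, 26.2 and 22.3 in +Rap samples, and 34510.1, 27769 and 28269 in -Rap +Man samples, against 55.4, 69.8 and 24.6 in -Rap samples. The log2 difference was 9.94 in depleted and 9.29 in undepleted cultures. The further ribosomal protein genes *RPL22A* (YLR061W) and *RPL33A* (YPL143W), the ribosome processing gene *RRP17* (YDR412W) and the oligosaccharyltransferase subunit *OST4* (YDL232W) had depleted differences of 6.70, 6.42, 6.90 and 5.62, and undepleted ones of 6.62, 6.07, 6.75 and 4.93. All 5 were low in the paired-end libraries and at least 1 order of magnitude higher in the single-end ones, with and without rapamycin. The marker gene *HIS3* (YOR202W) went the opposite way in both settings, with 638, 629 and 694 normalized counts in +Rap +Man samples, against 3961, 3868 and 3806 in +Rap samples, and log2 differences of -2.57 and -2.96. These genes have no overlap in the annotation used here, and no near-identical copy by the rule used (90% identity over at least 50% of the gene, introns included). Copies alike over a smaller part of the gene would not be found by it. Whether reads were shared with such copies was not tested.

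Several genes with a strongly negative difference of the comparisons were highest in +Rap cultures. For *SLI1*, *MCH2* (YKL221W), *RPN4*, *AGP3* and *PUS9* (YDL036C) every +Rap sample was above all samples of the other 3 groups. For *SLI1*, *AGP3* and *PUS9* every +Rap +Man sample was also below all samples of the other 3 groups. *SLI1*, an acetyltransferase, had 123, 134 and 148 normalized counts in +Rap +Man samples, against 5562, 6879 and 5499 in +Rap samples, and 351, 362 and 384 in -Rap +Man samples, against 882, 797 and 1095 in -Rap samples. Its depleted log2 difference was -5.45 (standard error 0.12, adjusted p = 1.4e-09 by limma), and the difference of the comparisons was -4.12 (adjusted p = 2.3e-07). *PUS9*, a pseudouridine synthase, had 453, 428 and 498 normalized counts in +Rap +Man samples, against 2030.1, 2119.5 and 1963 in +Rap samples, and 1566, 1566 and 1719 in -Rap +Man samples, against 1665, 1842 and 1451 in -Rap samples. The log2 difference of *PUS9* was -2.14 in depleted and -0.026 in undepleted cultures (difference of the comparisons -2.12, adjusted p = 6.7e-06 by limma). *MCH2*, of the monocarboxylate permease family, had 71.5, 52.0 and 67.2 normalized counts in +Rap +Man samples, against 617, 653 and 643 in +Rap samples, and log2 differences of -3.30 in depleted and -1.27 in undepleted cultures. *RPN4*, the transcription factor of proteasome genes, had 2027, 1502 and 1958 normalized counts in +Rap +Man samples, against 5948, 6443 and 7937 in +Rap samples, and 2751, 2386 and 2357 in -Rap +Man samples, against 1998, 2832 and 4235 in -Rap samples. Its log2 difference was -1.89 (standard error 0.14, adjusted p = 2.9e-06 by limma), and the difference of the comparisons was -1.68 (adjusted p = 0.0063, and passing in 3 of 12 fits that left out 1 sample). The other 37 tested members of the proteasome list were not called, and the median of the list was -0.12. *GID10* (YGR066C), a substrate receptor of a ubiquitin ligase, was among the most positive, with 41793, 30027 and 34718 normalized counts in +Rap +Man samples, against 7527, 6609.9 and 7561 in +Rap samples, a log2 difference of 2.28, and one of -1.55 in undepleted cultures. The plot of normalized counts of 12 genes sets these patterns side by side by sample. *MAL33* (YBR297W), a maltose activator, was higher by 1.66, which was 1.10 more than without depletion (adjusted p = 0.0064 by limma, and passing in 2 of 12 fits that left out 1 sample).

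**Figure D5:**
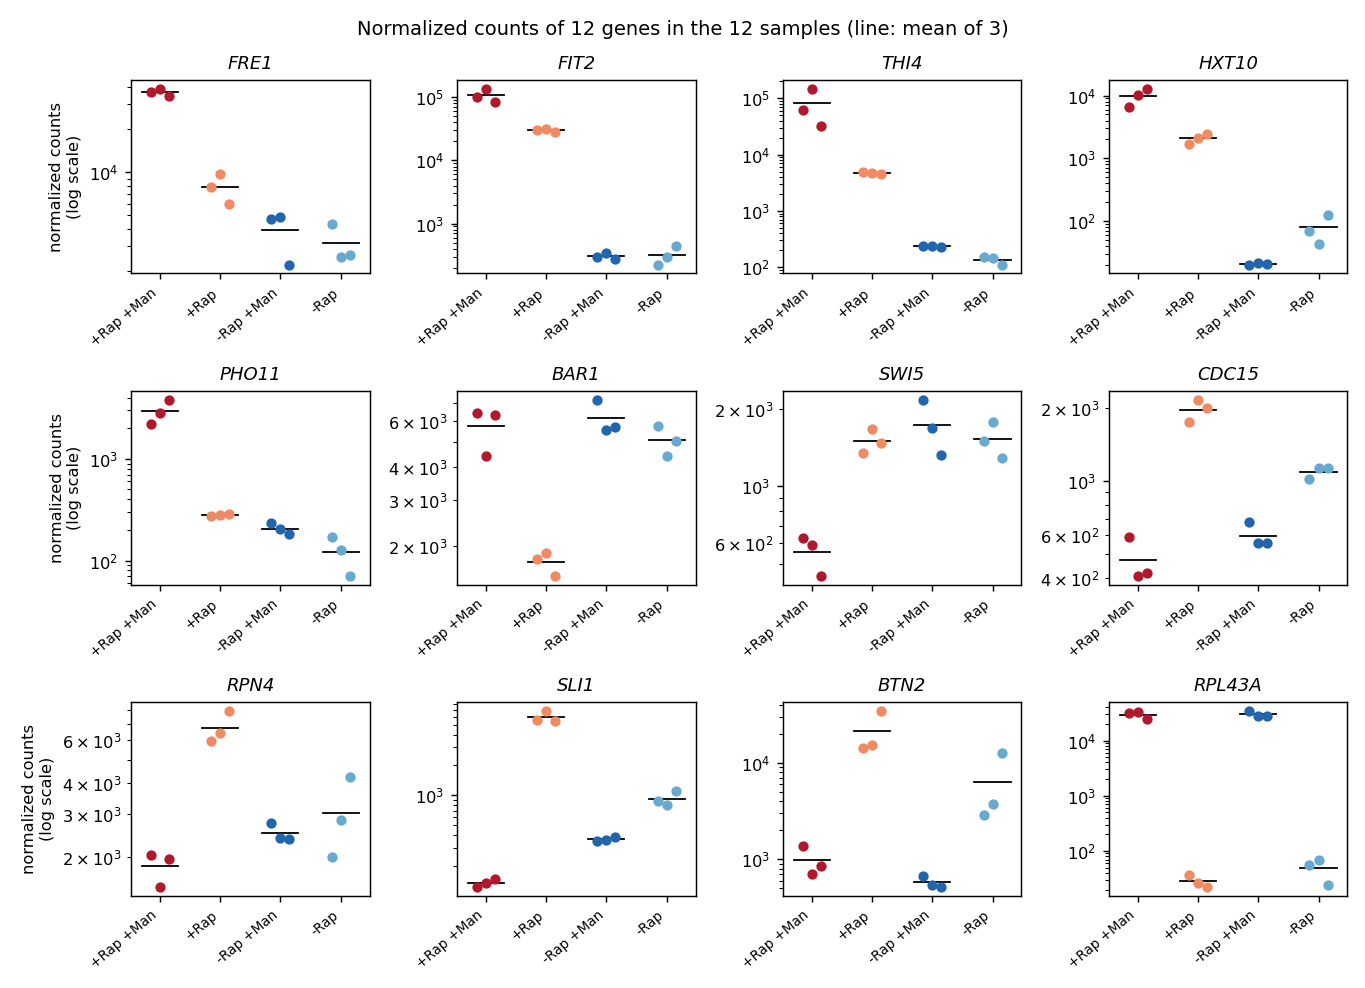
Normalized counts (log scale) of 12 genes in the 3 samples of each group, from left to right +Rap +Man, +Rap, -Rap +Man and -Rap, with points for samples and lines for means. *FRE1*, *FIT2*, *THI4*, *HXT10* and *PHO11* are highest in +Rap +Man, *SWI5* and *SLI1* are lowest there, *CDC15* is highest in +Rap, *BAR1* is lowest in +Rap, and *RPL43A* is low in both groups without mannose.

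Among genes the study uses as examples or controls, several were not called in the depleted comparison. *SUC2* (YIL162W), which codes for invertase, had 435121, 414877 and 346579 normalized counts in +Rap +Man samples and 433169, 574705 and 508266 in +Rap samples (log2 difference -0.34, adjusted p = 0.11 by limma), and *DIP5* (YPL265W), an amino acid permease, had 1811, 1098 and 1839.8 in +Rap +Man samples and 1504, 1458 and 1483 in +Rap samples (log2 difference 0.057, adjusted p = 0.79). Their groups overlapped. *SUT1* (YGL162W), a transcription factor of sterol uptake, had 1907, 1668 and 1517 normalized counts in +Rap +Man samples and 2890.1, 3353 and 3113 in +Rap samples, which did not overlap, and its difference of -0.88 did not reach 1. It was called lower with length centring (-1.01) and with total count scaling (-1.22). The undepleted difference was 0.55 and the difference of the comparisons -1.43 (adjusted p = 0.004 by limma, and passing in 8 of 12 fits, not without replicate 2 or 3 of +Rap +Man or of +Rap). The sign of *DIP5* turned with total count scaling and without +Rap +Man replicate 1 or 3. *TUP1* (YCR084C), the partner of *CYC8*, had 17395, 17829 and 14920 normalized counts in +Rap +Man samples and 9472, 14051 and 11575 in +Rap samples, which did not overlap. Its log2 difference of 0.53 (adjusted p = 0.0088 by limma) did not reach 1, and it was not called.

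Calls in the other lists stand beside 12.6% higher and 11% lower among all genes tested in depleted cultures. In undepleted cultures these shares were 6.97% and 7.9%. Of 22 tested genes of mannose use and protein mannosylation 0 were higher and 1 lower in +Rap +Man than in +Rap cultures, of 30 ergosterol genes 0 and 1 (3 lower without +Rap +Man replicate 1), of 14 genes of the tricarboxylic acid cycle 0 and 2, and of 13 housekeeping genes 0 and 0 (1 higher without +Rap replicate 1). Of 11 tested hypoxic mannoprotein genes 3 were higher and 0 lower, all 3 of the *PAU* family, whose members are near-identical, and of 10 tested in undepleted cultures 0 were higher and 2 lower. For 5 of these 10, beside 2.1% of all genes tested, the difference of the comparisons was more positive, and for 3 with length centring, without any 1 of the +Rap +Man samples, or without +Rap replicate 1, +Rap replicate 3 or -Rap +Man replicate 2. Of 28 tested genes of the peroxisome and fatty acid oxidation 2 were higher and 7 lower, and of 19 haploid and pheromone response genes 1 was higher and 5 were lower. The haploid and pheromone list gave 3 higher and 4 lower with length centring, and 3 lower without +Rap +Man replicate 3 or without any 1 of the +Rap samples. Of 25 tested genes of glycerol and osmotic stress 7 were higher and 1 lower, of 15 of DNA damage and ribonucleotide reductase 5 and 1, and of 21 of allantoin, proline and urea use 0 and 5. In undepleted cultures 3 osmotic stress genes were higher and 3 lower, and 6 allantoin, proline and urea genes were lower. Of 35 genes of the respiratory chain 7 were higher and 0 lower, and the same numbers held in undepleted cultures. With length centring 3 were higher and 2 lower in depleted cultures, and the median of the list turned to -0.20, beside 0.19 without it. Of 49 genes of amino acid synthesis under Gcn4 7 were higher and 0 lower, a share near the 12.6% of all genes tested that were higher, with a median of 0.15, which total count scaling turned to -0.19.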

How the data were processed

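RNA of 12 cultures was sequenced from rRNA-depleted, strand-specific libraries. Per the submitters' processing notes and the study's methods, reads were trimmed with fastp 0.20.0 and aligned with STAR 2.7.3 to the S288c genome, and the study tested its own comparisons with DESeq2. The deposited values are whole-number counts per gene, written by the authors with digit separators. The counting tool, its strand and multimapping settings and the annotation release are not given in the sources used here. Samples were grouped by their labels. The members of the comparison and the gene lists were chosen with earlier results of these data known.

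Counts were scaled with TMM factors over all 12 samples (trimming 30% of ratios and 5% of levels) and log2 was taken after adding 2. Genes were tested where every sample compared had 10 or more counts, with limma 3.58.1 in R 4.3.3 with a mean-dependent prior. A test on the log scale was planned because the values with digit separators did not pass a check of units as counts. The separators were then removed and the values read as whole numbers. Genes were called at a Benjamini-Hochberg adjusted p of at most 0.01 where the log2 difference was 1 or more in size. The fit for the depleted comparison holds its 6 samples, that for the undepleted comparison 6 others, and that for the difference of the comparisons all 12. Scripts were tested on simulated data. Within each experiment the deviations of same-numbered samples from their group means correlated over genes by 0.24, 0.14 and 0.31 (+Rap and -Rap) and by 0.55, 0.25 and 0.31 (+Rap +Man and -Rap +Man), and the study's methods say that cultures were divided into parts with and without rapamycin. Samples of different number and experiment correlated by up to 0.25 (-Rap +Man replicate 3 and -Rap replicate 2), so values of this size do not establish which samples belong together. Same-numbered samples were taken as parts of 1 culture, an assumption that the methods do not state by number, and the replicate block was fitted for the difference. P-values measure the spread between the 3 cultures of a group. Totals of the 12 samples ran from 26125728 to 51088194 counts, and replicates differed by more than counting error.

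Gene lengths, overlaps, near-identical copies (90% identity over at least 50% of the length, blastn 2.17.0+) and the windows of 500 bases before start codons came from the RefSeq annotation of assembly R64, in which 6216 of 6775 genes were found. Of 44 lists, the text gives counts, medians and named genes. Genes were named if the study uses them as examples or controls, if they were among the 12 with the largest called log2 difference in each direction, if they were among the 3 largest called of a list in each direction, or if they were among the 5 in each direction with the largest difference of the comparisons. Those with a mean under 100 normalized counts, an overlap or a copy were left out of the 12 and the 5. *ARN2*, *SIT1*, *TNA1*, *VHT1*, *PHO89*, *GIT1*, *HXT2*, *FUI1*, *AGA2*, *EGT2*, *BUD4*, *IQG1*, *CLB2*, *HSP104*, *GSY1*, *IME1*, *PGK1*, *NSR1* and *FPR1* were named outside this rule after their values were seen. Alternatives were another scaling, pseudocounts of 0.5 and 8, filters on low counts, gene length and copies, precision weights, thinning, a replicate block, all 12 samples in 1 fit, and leaving out each sample. Some genes are not reported here. Python 3.11.15 with pandas 2.3.3 and numpy 2.4.6 did the rest.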

Additional observations from a re-analysis of the deposited data

Results flagged for a closer look

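For 36 of 83 named genes tested, the depleted difference departed from the undepleted one in a test of the difference itself (limma with Benjamini-Hochberg adjustment, all 12 samples, log2 scale). Over all 5771 genes tested, 2.1% were more positive and 1.04% more negative in depleted cultures. Some named genes were chosen by this same test and some after their values were seen, so the 36 of 83 is not a rate. All 36 also passed with the replicate block, 29 also with length centring (not *AGA2*, *SUL2* or any of the 5 cell cycle and separation genes below), and 19 in each of the 12 fits that left out 1 sample, while 17 lost the call in at least 1 of those fits. In the 24 with a more positive difference in depleted cultures, metal and vitamin genes had 1.97 for *FRE1*, 1.84 for *FIT2*, 1.45 for *ARN2*, 3.96 for *FRE5*, 3.01 for *THI4*, 1.15 for *TNA1* and 3.67 for *BIO5*. Phosphate genes had 2.53 for *PHO11*, 2.21 for *PHO5*, 2.34 for *PHO89* and 2.31 for *GIT1*. Sugar and nucleobase genes had 3.91 for *HXT10*, 1.69 for *HXT2*, 4.03 for *HXT6*, 1.10 for *MAL33*, 1.11 for *FUR4* and 1.69 for *FUI1*. Mating, spore wall and other genes had 2.21 for *MFA1*, 1.47 for *AGA2*, 1.43 for *BAR1*, 2.32 for *DIT1*, 2.40 for *DIT2*, 1.20 for *FLO9* and 3.83 for *GID10*.

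The 12 with a more negative difference were cell cycle and separation genes with -1.60 for *SWI5*, -1.19 for *CDC15*, -1.35 for *BUD4*, -1.01 for *IQG1* and -1.23 for *PRY3*, and others with -1.09 for *SUL2*, -1.43 for *SUT1*, -1.68 for *RPN4*, -4.12 for *SLI1*, -2.40 for *AGP3*, -2.12 for *PUS9* and -2.02 for *MCH2*. Mannose, sequencing run and read type change together in the depleted and in the undepleted comparison.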

How the results depend on the processing

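The depleted counts of 742 higher and 647 lower genes were 490 and 1175 with total count scaling, and 473 higher with genes of at least 500 bases only. When each of the 6 samples was left out they lay between 714 and 781 and between 620 and 718. The undepleted higher count was 611 with a looser filter, the undepleted lower count 283 with at least 100 counts in every sample, and without each sample in turn these counts lay between 292 and 430 and between 359 and 429. The difference of the comparisons gave 222 more positive and 106 more negative genes at an adjusted p of at most 0.05, 63 more positive with at least 100 counts, 187 and 85 with the replicate block, and between 70 and 139 and between 23 and 79 without each sample in turn. Centring on length bins, chosen for this comparison after seeing the data, gave 112 and 45, of which 94 and 32 were among the 121 and 60. The numbers of +Rap +Man and +Rap samples name separate cultures (correlations of deviations of -0.28, 0.04 and 0.03), and a replicate block on them gave 742 and 645 genes. Among genes the text names, signs that turned belonged to differences that were not called: *FLO5* had 0.15 with length centring, *FLO11* -0.24, *PHO89* -0.0050, *CLB2* -0.067 and *DIP5* -0.28 with total count scaling, *FLO11* between -0.033 (without +Rap replicate 1) and 0.25 (without +Rap replicate 2) without each sample in turn, and *DIP5* between -0.071 (without +Rap +Man replicate 3, and -0.060 without replicate 1) and 0.30 (without +Rap +Man replicate 2). The causes were not tested. Thinning every sample to the smallest total gave 712 and 652 genes, of which 710 and 609 were among the 742 and 647, and ended the call of *BIO5*.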
